A study of Oryza sativa with 6 samples.

Results

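Gene expression after salt exposure was described in the nodal roots of rice (Oryza sativa), the shoot-borne main axes of the root system. One library came from salt-treated nodal roots of the cultivar IR29, exposed to 50 mM NaCl for 7 days, and 1 from control nodal roots of IR29 without added NaCl. The series title calls IR29 sensitive to salinity, and no mutant or transgene is named in the labels. The same treatment and control were also applied to L-type and S-type lateral roots, the long and short branches of the nodal axes, again with 1 library a group. Of the 37938 loci in the deposited table, the 12885 with at least 50 scaled reads in either nodal library are described here. The scale is that of an average library: reads divided by a library-specific factor. The lowest of these loci reached 50.6 scaled reads in its higher library and the highest locus left out reached 49.7. The labels give neither a number of plants per library nor an hour of sampling, and the 2 nodal libraries have no replicate, so no p-value of this work is attached to their differences.

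Sodium chloride in the root medium lowers the water potential that roots draw against and loads tissue with sodium and chloride. Plants are known to answer with abscisic acid (ABA) and other hormone signals, with changes in water channels and ion transporters, and with slower growth and altered cell walls. Nodal roots of rice also take up nitrate, ammonium and iron, iron as ferrous ions and as complexes with secreted chelators called phytosiderophores. Green plastids are not usual in roots kept in the dark, so genes of photosynthesis mark shoot or greened tissue in a root sample.

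Total reads were 4126193 in the salt nodal and 4249872 in the control nodal library, and the lateral libraries had 3839177 to 4081780. A read fell on 24121 loci in salt nodal roots and on 23560 in control nodal roots. The described loci held 95.8% of the salt nodal reads and 96.4% of the control nodal reads. Among root markers, 1 of 2 listed root proline-rich protein loci had 5515 scaled reads in salt nodal and 11201 in control nodal roots, and the other had no read in any library. All 4 listed loci for silicon transporters and the Casparian strip, the apoplastic barrier of the root, were above the minimum in the nodal pair. Their scaled reads summed to 6176 in salt nodal and 3686 in control nodal roots. Those of the 11 listed nitrate and ammonium uptake loci summed to 391 in salt nodal and 1085 in control nodal roots. The root markers thus went both ways. Shoot markers differed between the libraries: 55 loci of 4 photosynthesis lists took 0.202% of the salt nodal library and 0.04998% of the control nodal library.

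Salt-treated nodal roots had 1689 loci higher than control nodal roots, which is 13.1% of those described. Another 1539 loci, or 11.9%, were lower. A locus was called higher or lower when it differed by at least 2-fold on log2(scaled reads + 1), reached 50 scaled reads in the higher library, and had a 95% counting interval of the ratio that excluded 1. That interval is an exact conditional binomial (Clopper-Pearson) interval, and it covers counting error only, not the spread between plants. The other 9657 loci were not called. Of these, 4018 had an interval that included 1, and 5639 had an interval that excluded 1 but differed by less than 2-fold. The median log2 change over all 12885 loci was -0.06, the 10th and 90th percentiles were -1.09 and 1.20, and 45.0% of loci lay within 0.5 of no change. Because these are bulk libraries, fewer cells of a type and less RNA per cell cannot be told apart.

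**Figure D1:**
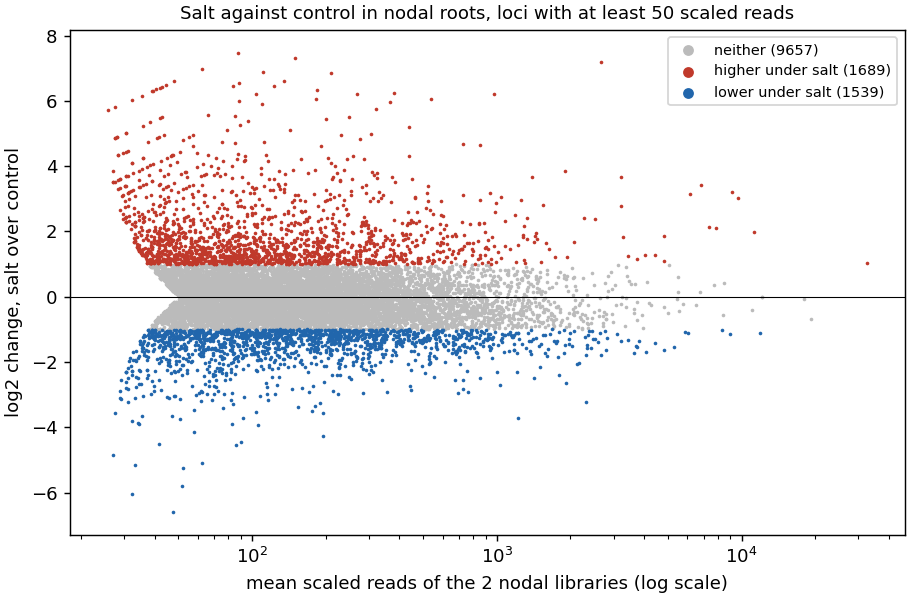
Log2 change, salt over control nodal roots (vertical axis), against the mean scaled reads of the 2 nodal libraries (horizontal axis, log scale), with 1 point per locus. Red points are the 1689 higher loci, blue points the 1539 lower loci and grey points the 9657 loci called neither way. The red points reach further from 0 than the blue ones.

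Which direction held more loci depended on the scaling, while the larger changes leaned upward under each scaling tried. Of all calls, 52.3% were higher with the trimmed-mean scaling used here, 42.7% with median-of-ratios factors (1430 higher, 1918 lower), 43.9% on the deposited scale (1461 and 1868) and 58.5% with library totals (1933 and 1369). At 4-fold or more, 551 loci were higher and 232 lower. At 8-fold the counts were 262 and 50, and at 16-fold 107 and 12. The 4-fold counts were 506 higher and 277 lower with median-of-ratios factors, 510 and 273 on the deposited scale, and 613 and 212 with library totals. Without the 55 photosynthesis loci, 525 were higher and 232 lower at 4-fold. The higher loci took 18.9% of salt nodal reads and 5.21% of control nodal reads, and the lower loci took 7.88% of salt nodal and 20.03% of control nodal reads.

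**Figure D2:**
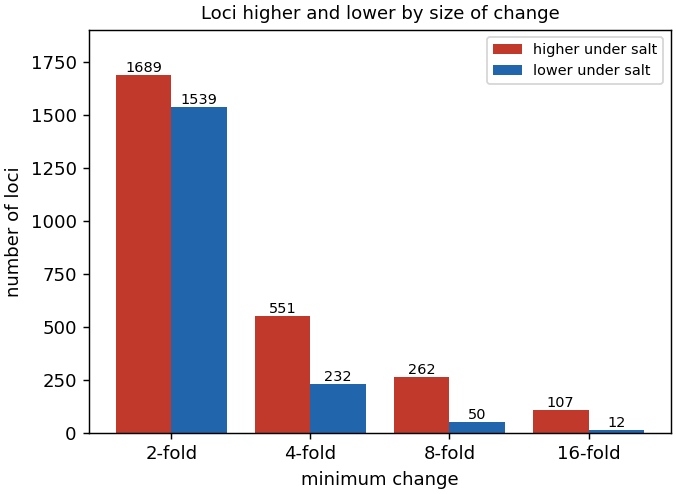
Number of loci higher (red) and lower (blue) in salt against control nodal roots at a minimum change of 2-, 4-, 8- and 16-fold, as bars from 0. The pair of bars falls from 1689 and 1539 at 2-fold to 107 and 12 at 16-fold, so the share of higher loci grows with the size of change.

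The share of called loci varied with level. Of the 4726 loci with a mean of 25 to 100 scaled reads, 18.5% were higher and 12.4% lower. Among the 5255 loci at 100 to 300 scaled reads the shares were 9.99% and 10.3%, and among the 2414 at 300 to 1000 they were 9.94% and 13.0%. The 417 loci at 1000 to 3000 scaled reads leaned downward, with 7.91% higher and 19.7% lower. Above 3000 scaled reads, 17 of 73 loci were higher and 16 lower. A locus near the minimum of 50 passes it through the library where it is high, so the shares in the lowest band are shaped by that minimum.

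To describe these changes by function, 44 lists of rice gene IDs were used, named for pathways, transporters and tissue markers. The files do not pair IDs with gene names, and list membership was written from general knowledge and not checked against an annotation, so lists are given by counts and levels and not by gene. Of the 390 listed IDs 376 were in the table, and 238 listed loci passed the minimum. Of these, 23.1% were higher and 30.7% lower, against 13.1% and 11.9% of all described loci. The lists were chosen with earlier results of these data known, so the larger shares cannot be read as a trait of these functions. Of the 55 higher list loci 37 passed the minimum through the salt library alone, and of the 73 lower ones 27 passed through the control library alone, so their number is shaped by that minimum. Over all described loci the same held for 940 of the 1689 higher and 573 of the 1539 lower ones. Sums of scaled reads below run over every listed locus in the table, also those under the minimum. Lists with medians near -1 are to be read beside the reference genes, whose 5 loci were all below 0 with a median of -0.84.

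Of the 44 lists, light-harvesting proteins and photosystem and electron carriers had the highest medians. All 12 light-harvesting protein loci, which encode the antenna of the photosystems, were higher in salt nodal roots, with log2 changes of 2.69 to 6.97 and a median of 4.55. Their scaled reads summed to 2932 in salt nodal and 101 in control nodal roots. The most-read of them had 725 scaled reads in salt nodal and 10.6 in control nodal roots, a ratio of 68.0 (95% counting interval 38.7 to 132). Another had 125 scaled reads in salt nodal roots and no read in control nodal roots, which is at least 46.8-fold higher against a floor of 3 reads per library, while the lower end of its counting interval is 37.6. Of 18 photosystem and electron carrier loci 12 passed the minimum, of which 11 were higher (median 4.53) and the remaining one had 163 scaled reads in salt nodal and 146 in control nodal roots. In deposited FPKM (fragments scaled by length and depth) that remaining locus had 32.7 in salt nodal and 12.9 in control nodal roots. Setting loci without a control read to that floor left both medians as they were. This could not move them, since those loci lie above the medians either way. Each of the 12 light-harvesting and 11 photosystem loci called higher passed the minimum through the salt library alone. Taking every listed locus with a read, 12 of 12 light-harvesting and 17 of 17 photosystem loci had a change above 0, with medians of 4.55 and 3.79. For Rubisco and the Calvin cycle, which fix carbon, 2 of 4 loci were higher, and for chlorophyll synthesis and greening 3 of 5 were higher. The most-read Calvin cycle locus was not among the higher ones, with 548 scaled reads in salt nodal and 811 in control nodal roots.

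Across the lateral roots, the summed reads of these 4 lists were higher in the salt library of L-type roots but not of S-type roots. The L-type sums, salt against control, were 1089 and 133 for light-harvesting proteins and 1242 and 343 for photosystem and electron carriers. They differed less for Rubisco and the Calvin cycle (838 and 692) and for chlorophyll synthesis (738 and 695). By list the S-type sums went both ways. Salt against control, they were 34.9 and 39.3 for light-harvesting proteins and 368 and 365 for photosystem and electron carriers. For Rubisco and the Calvin cycle they were 599 and 670, and for chlorophyll synthesis 1442 and 1378. Of the S-type chlorophyll synthesis sums, 1 locus held 1280 under salt and 1210 under control. The 55 loci summed to 7265 scaled reads in salt nodal and 1885 in control nodal roots, to 3907 in salt L-type and 1864 in control L-type roots, and to 2443 in salt S-type and 2453 in control S-type roots. Of the 33 that passed the minimum in nodal roots, 28 were higher there, 15 were also higher in L-type roots and 0 in S-type roots. Of all loci higher in nodal roots, 43.6% were also higher in L-type roots and 6.69% in S-type roots. More overlap with L-type than with S-type roots is thus not particular to these lists. The 28 make up 1.66% of the higher loci in nodal roots, and without the 4 lists 1661 loci were higher and 1539 lower. Whether shoot tissue, light on the roots or greening in the roots had a part in the other results was not tested.

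Circadian clock loci, whose products time daily rhythms, also stood apart, with 6 of 10 higher, 1 lower and a median of 1.35 on the log2 scale. The locus with the highest change had 166 scaled reads in salt nodal and 7.99 in control nodal roots, 297 in salt L-type and 6.18 in control L-type roots, and 445 in salt S-type and 75.1 in control S-type roots. The only lower one had 241 scaled reads in salt nodal and 886 in control nodal roots, 375 in salt L-type and 1404 in control L-type roots, and 146 in salt S-type and 579 in control S-type roots. For both loci the salt library was on the same side of its control in all 3 root types. The part of the hour of sampling in these results was not tested.

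Iron uptake loci were lower and iron storage loci higher in salt nodal roots. Of 8 loci for iron uptake and phytosiderophores, 7 were lower and 0 higher, with log2 changes from -3.87 to -0.59 and a median of -1.69. Over the 12 listed loci, scaled reads summed to 1793 in salt nodal and 6716 in control nodal roots, to 1295 in salt L-type and 4566 in control L-type roots, and to 3409 in salt S-type and 7437 in control S-type roots. The most-read one had 275 scaled reads in salt nodal and 1785 in control nodal roots, 6.50-fold lower (5.77 to 7.34). It had 29.6 in salt L-type and 235 in control L-type roots, and 72.3 in salt S-type and 596 in control S-type roots. Salt was lower than control for this locus in every root type, whereas 2 other loci of the list were higher under salt in L-type roots. They had 121 and 349 scaled reads in salt L-type roots, against 30.001 and 78.5 in control L-type roots. Both ferritin loci, which encode the iron storage protein of plastids, were higher, and they summed to 898 scaled reads in salt nodal and 259 in control nodal roots. The ratios were 3.32 (2.83 to 3.91) and 3.78 (3.003 to 4.80). In L-type roots the ferritin sums were 810 under salt and 238 under control, and in S-type roots 480 under salt and 382 under control.

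Loci for nitrogen uptake and its use were lower in salt nodal roots. Among nitrate and ammonium uptake loci 3 of 5 were lower and 0 higher (median -1.94), and the 11 listed loci summed to 391 scaled reads in salt nodal and 1085 in control nodal roots. Of the 3 lower loci 2 passed the minimum through the control library alone, and the median of the 9 listed loci with a read was -0.92. The largest change was at a locus with 29.6 scaled reads in salt nodal and 360 in control nodal roots, 12.2-fold lower (8.56 to 17.8). In nitrogen assimilation, which turns nitrate and ammonium into amino acids, 5 of 8 loci were lower and 0 higher (median -1.59). The sums over 10 listed loci were 4676 in salt nodal and 12393 in control nodal roots, and the most-read locus had 447 scaled reads in salt nodal and 4197 in control nodal roots, 9.38-fold lower (8.56 to 10.3). In L-type roots the assimilation sum was instead higher under salt, 4052 against 3512 in control, and in S-type roots it was 3077 under salt and 5383 under control. Phosphate transport and SPX loci, SPX proteins being phosphate sensors, were mixed, with 1 of 5 higher and 1 lower. With library totals 0 were lower, and with median-of-ratios factors 2. Their median of 0.18 turned to -0.28 with median-of-ratios factors and -0.27 on the deposited scale.

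Jasmonate loci were lower in salt nodal roots. Of 5 loci for jasmonate synthesis 4 were lower and 0 higher, with a median of -1.35 on the log2 scale. The 9 listed loci summed to 611 scaled reads in salt nodal and 1369 in control nodal roots. Of 10 loci for jasmonate repressors and factors, which answer to the hormone, 8 were lower and 0 higher (median -1.87, from -5.24 to 0.05), and 7 were lower with library totals. Of those 8, 6 passed the minimum through the control library alone, and all 10 listed loci are counted. Their reads summed to 1193 in salt nodal and 2648 in control nodal roots. The largest change of the list was at a locus with 1.74 scaled reads, or 2 reads, in salt nodal and 103 scaled reads in control nodal roots, a ratio of control over salt of 59.04 (15.98 to 493). That locus had 119 scaled reads in salt L-type and 291 in control L-type roots, and 609 in salt S-type and 895 in control S-type roots. The list sums were also lower in salt than in control laterals, 4859 against 7743 in L-type and 13051 against 18218 in S-type roots. Both nodal sums were thus below those of each lateral library.

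ABA loci were mostly not called in the nodal pair. The single ABA synthesis and breakdown locus above the minimum had 221 scaled reads in salt nodal and 320 in control nodal roots, against 1881 in salt L-type and 205 in control L-type roots. In S-type roots the same locus had 4448 under salt and 1622 under control. Its nodal log2 change was -0.54, and with library totals, where another locus also passed the minimum, the list median was 0.81. Clade A protein phosphatases, which hold back ABA signalling, had 1 of 4 loci higher and 0 lower (median 0.34). Of the dehydrin, LEA and SalT loci, which encode proteins of water deficit, 2 passed the minimum: 0 were higher and 1 was lower, with 224 scaled reads in salt nodal and 459 in control nodal roots. That locus had 1127 in salt L-type and 463 in control L-type roots, and 5331 in salt S-type and 3311 in control S-type roots. Both lateral pairs were on the opposite side, and the locus was not called lower in nodal roots with library totals. The remaining dehydrin, LEA and SalT locus above the minimum was not called. It had 95.9 scaled reads in salt nodal and 54.1 in control nodal roots, with a counting interval of the ratio of 1.28 to 2.46.

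Stress transcription factors had 4 of 7 loci higher and 0 lower. Their median of 1.004 was at the 2-fold limit, and it was 0.33 with median-of-ratios factors and 0.34 on the deposited scale, where 3 loci were higher. The locus at that median had 122 scaled reads in salt nodal and 60.3 in control nodal roots. Its deposited FPKM were 49.4 in salt nodal and 44.9 in control nodal roots, so its call depended on the measure. The most-read locus had 387 scaled reads in salt nodal and 162 in control nodal roots, a ratio of 2.38 (2.002 to 2.85). The largest change was at a locus with 137 scaled reads in salt nodal and 13.3 in control nodal roots, which was lower under salt in S-type roots, 69.7 against 651 in control. WRKY factors, a family of defence and stress regulators, had 2 of 6 higher and 2 lower, with 1 higher under median-of-ratios factors or on the deposited scale. Among ethylene synthesis and perception loci 1 of 8 was higher and 3 were lower, with a median of 0.03, or -0.08 with median-of-ratios factors and -0.07 on the deposited scale. Auxin carriers had 0 of 4 loci called, and cytokinin response had 0 of 4 higher and 1 lower.

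**Figure D3:**
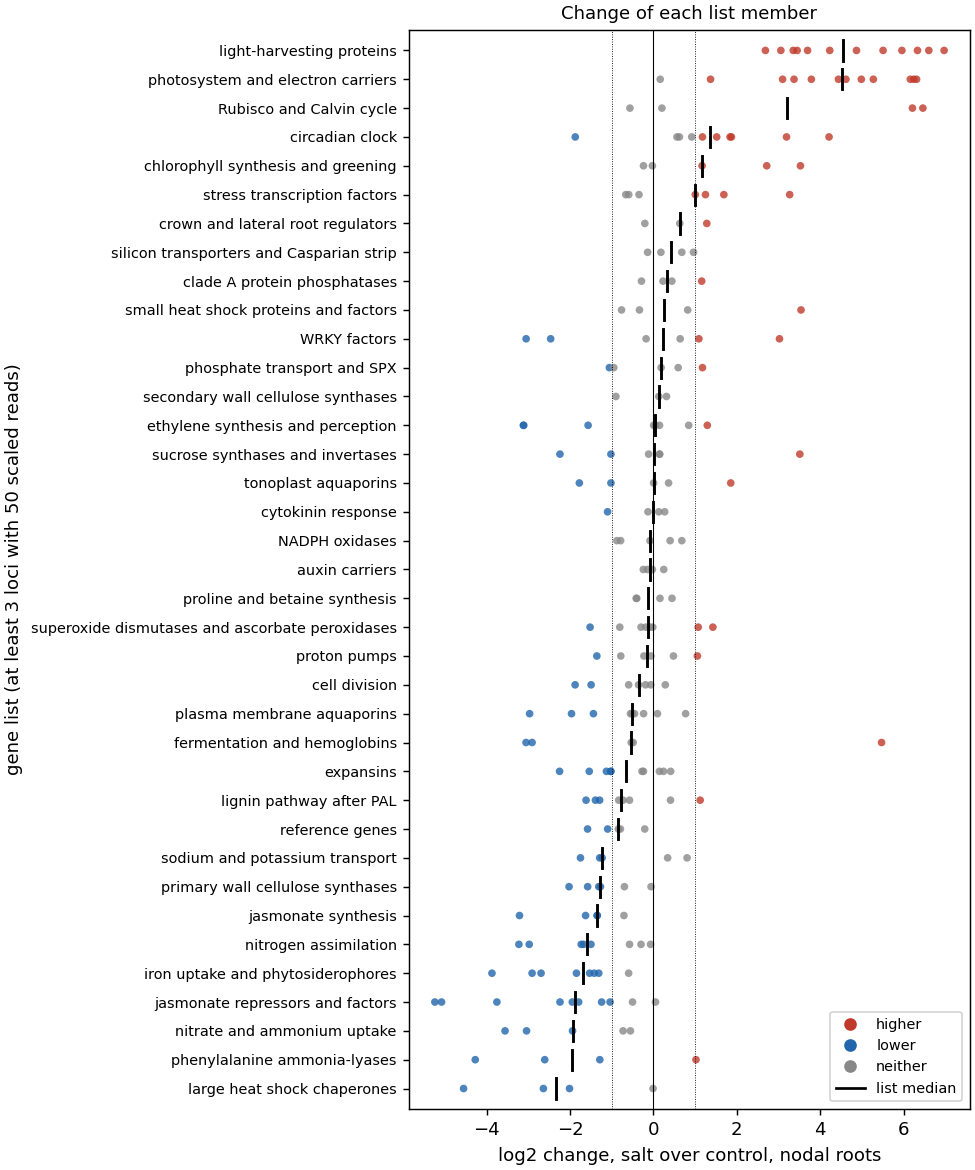
Log2 change, salt over control nodal roots (horizontal axis), of each locus in the lists with at least 3 loci above the minimum (rows, ordered by median). Red points are higher, blue points lower and grey points called neither way, black bars are list medians and dotted lines mark a 2-fold change. Light-harvesting proteins lie wholly to the right at a median of 4.55, and jasmonate repressors and factors lie mostly to the left at a median of -1.87.

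Water channels and ion transporters changed less evenly. Plasma membrane aquaporins had 3 of 9 loci lower and 0 higher, with a median of -0.51. The 11 listed loci summed to 17990 scaled reads in salt nodal and 22725 in control nodal roots. The most-read had 5302 in salt nodal and 6244 in control nodal roots and was not called. Tonoplast aquaporins, the channels of the vacuole membrane, had 1 of 5 higher and 2 lower, and 1 lower with library totals. Their median of 0.00 became -0.10 with median-of-ratios factors and -0.09 on the deposited scale. The most-read tonoplast locus had 12100.1 scaled reads in salt nodal and 12064 in control nodal roots, a ratio of 1.003 (0.980 to 1.03). It had 46.5 in salt S-type and 2022 in control S-type roots. Among loci for sodium and potassium transport, 3 of 5 were lower and 0 higher (median -1.23), while the most-read locus of that list had 703 scaled reads in salt nodal and 555 in control nodal roots. Proton pumps, which power ion transport, had 1 of 6 higher and 1 lower, with 0 higher under median-of-ratios factors or on the deposited scale. The lower one had 2139 scaled reads in salt nodal and 5482 in control nodal roots, 2.56-fold lower (2.45 to 2.69).

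In the scaled reads, cell wall loci were lower for the primary wall and not called for the secondary wall. Of 6 primary wall cellulose synthase loci 4 were lower and 0 higher (median -1.29), and their reads summed to 6479 in salt nodal and 15748 in control nodal roots. The most-read one had 1657 in salt nodal and 4000 in control nodal roots, 2.41-fold lower (2.29 to 2.55). The sums were likewise lower in salt than in control laterals, 3721 against 7274 in L-type and 2642 against 5159 in S-type roots. None of 3 secondary wall cellulose synthases, markers of the vascular stele, was called, with sums of 3590 in salt nodal and 4106 in control nodal roots, and 1 of them was lower with median-of-ratios factors. In deposited FPKM (fragments scaled by length and depth), 1 of the 3 had 99.8 in salt nodal and 220 in control nodal roots. Another had 88.5 and 175, although its scaled reads were 1070 and 978, and the remaining one had 105 and 90.1. The secondary wall result thus depended on the measure. Expansins, which loosen walls, had 5 of 10 lower and 0 higher, or 3 lower with library totals. The root proline-rich locus was 2.03-fold lower (1.97 to 2.09) and lost the call with library totals. Phenylalanine ammonia-lyases, which open the phenylpropanoid pathway, had 1 of 4 higher and 3 lower (median -1.95), with 0 higher under median-of-ratios factors or on the deposited scale. The list's reads ran the other way from its median, since the higher locus held most of them, with sums of 43973 scaled reads in salt nodal and 23170 in control nodal roots. The lignin pathway after them had 1 of 8 higher and 3 lower (median -0.78). Cell division loci had 0 of 7 higher and 2 lower, and summed to 1174 in salt nodal and 1708 in control nodal roots.

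**Figure D4:**
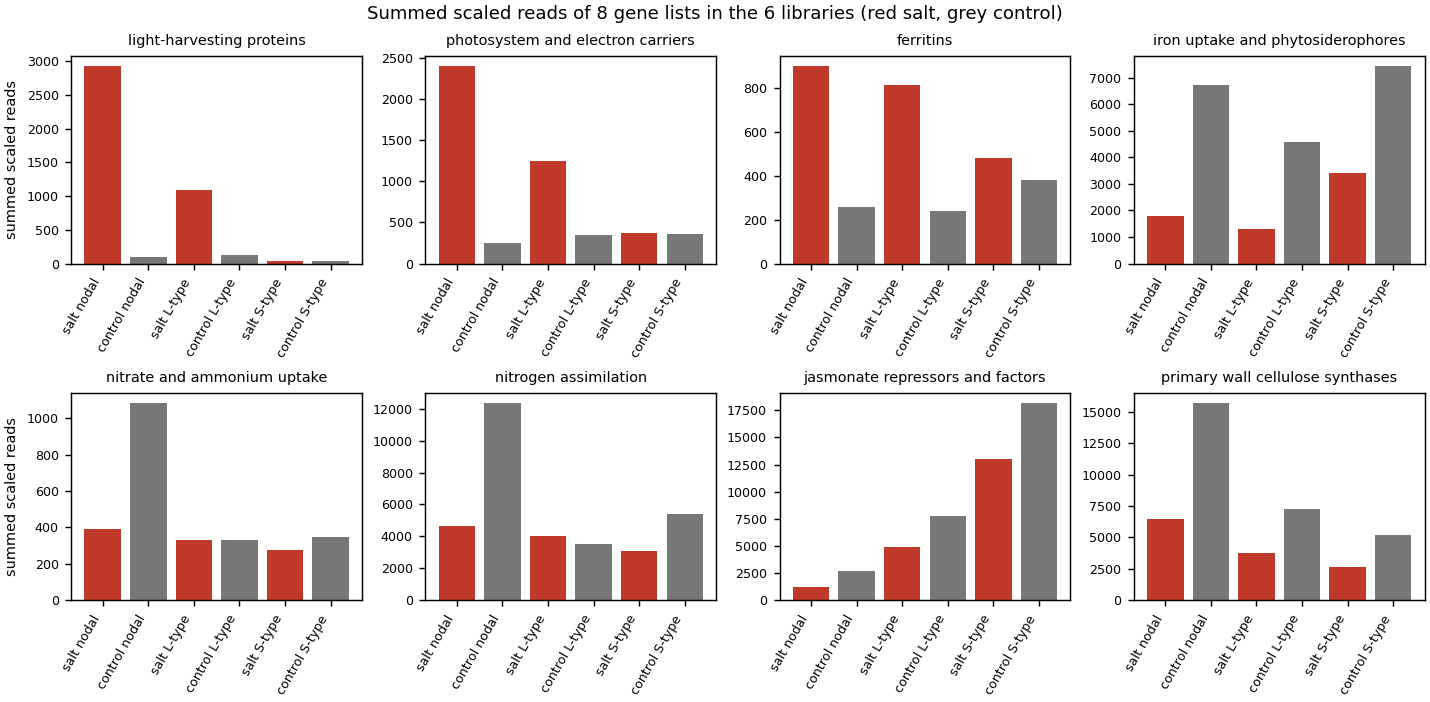
Summed scaled reads (vertical axis, from 0, on a separate scale in each panel) of all listed loci of 8 gene lists in the 6 libraries, red for salt and grey for control, each bar 1 library. Iron uptake, jasmonate and primary wall lists are below control under salt in each root type, while the nitrate and ammonium list differs mainly in the nodal pair, at 391 under salt and 1085 under control.

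Heat shock, sugar and oxygen lists were uneven. Large heat shock chaperones had 3 of 4 loci lower and 0 higher (median -2.33). Their most-read locus was not called, at 12039 scaled reads in salt nodal and 12113 in control nodal roots, and it had 21328 in salt L-type and 6333 in control L-type roots. Small heat shock proteins and factors had 1 of 4 higher, with 424 scaled reads in salt nodal and 35.5 in control nodal roots. Fermentation enzymes and hemoglobins had 1 of 5 higher and 2 lower. Sucrose synthases and invertases, which split sucrose, had 1 of 6 higher and 2 lower. Their median of 0.02 became -0.09 with median-of-ratios factors and -0.08 on the deposited scale, and 1 was lower with library totals. Superoxide dismutases and ascorbate peroxidases, enzymes that remove reactive oxygen, had 2 of 8 higher and 1 lower, with 1 higher under median-of-ratios factors or on the deposited scale. None of 2 catalases, 5 NADPH oxidases and 4 proline and betaine synthesis loci was called.

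Single loci by ID are limited to 2 in each direction, since no name could be attached to them. Coordinates are those of build IRGSP-1.0. Among loci with at least 200 scaled reads, the largest ratio upward was at Os03g0826900 on chromosome 3 (34739010 to 34740664). It had 297 scaled reads (341 reads) in salt nodal and 0.887 (1 read) in control nodal roots, a ratio of 335 with a counting interval of 59.7 to 13270. It had 305 in salt L-type and 2.65 in control L-type roots, and 42.6 in salt S-type and 10.7 in control S-type roots. The salt library was above its control in all 3 root types.

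The largest difference in reads upward was at Os02g0626400 on chromosome 2 (24973421 to 24989388), with 43493 scaled reads in salt nodal and 21439 in control nodal roots, a ratio of 2.03 (1.998 to 2.06). This locus alone took 1.21% of the salt nodal and 0.568% of the control nodal library. It had 21163 in salt L-type and 10515 in control L-type roots, but 4307 in salt S-type and 15396 in control S-type roots. Among loci with at least 200 scaled reads, the largest ratio downward lay near it on the same chromosome, at Os02g0626600 (24992881 to 24995414), with 18.3 scaled reads in salt nodal and 373 in control nodal roots, 20.4-fold lower (13.1 to 33.2). It was also below control in both lateral types, at 188 against 306 in L-type and 634 against 1877 in S-type roots. Os02g0626400 and Os02g0626600 lie in the same gene list above, so their reads were already counted there. The largest difference in reads downward was at Os03g0401366 on chromosome 3 (16301278 to 16307676), with 14855 scaled reads in salt nodal and 23770 in control nodal roots. Its log2 change of -0.68 was under 2-fold, so it was not called.

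Few loci were read in only 1 of the 2 nodal libraries. In 13 loci with 51.4 to 175 scaled reads in salt nodal roots, control nodal roots had no read, which is at least 19.3- to 65.8-fold higher against the floor of 3 reads per library. The lower ends of their counting intervals are 15.2 to 53.04. Of these 13, 3 were in the photosynthesis lists. All 13 had at least 10 scaled reads in salt L-type roots and 1 did so in control L-type roots, and 4 did so in each of the S-type libraries. In the other direction, 2 loci had no read in salt nodal roots and 64.8 and 94.96 scaled reads in control nodal roots, and neither reached 10 in any lateral library. No share of all described loci reaching 10 in the lateral libraries stands beside these counts, so they do not set these loci apart.

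The salt changes of nodal roots were then set beside those of the lateral roots, measured in other libraries. L-type roots had 2161 loci higher (16.7% of 12928) and 1472 lower (11.4%), and S-type roots had 625 higher (5.04% of 12408) and 1580 lower (12.7%). Of the loci higher in nodal roots, 736 were also higher in L-type roots, which is 43.6% of the nodal and 34.1% of the L-type loci. By comparison 113 were also higher in S-type roots, or 6.69% of the nodal and 18.1% of the S-type loci. Of the loci described in nodal roots, 13.8% met the rule for higher in L-type roots and 2.62% did so in S-type roots. Of the loci lower in nodal roots, 407 were lower in L-type roots, 26.4% of the nodal and 27.6% of the L-type loci. In S-type roots 315 of them were lower, 20.5% of the nodal and 19.9% of the S-type loci. Of the loci described in nodal roots, 9.60% met the rule for lower in L-type roots and 10.6% did so in S-type roots.

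The median L-type change was 1.16 for loci higher in nodal roots and -0.58 for loci lower in nodal roots, while over all described loci it was -0.05. The median S-type changes were 0.05 and -0.50, against -0.10 over all described loci. Across the 12229 loci averaging 50 or more scaled reads over the 6 libraries, nodal changes correlated with L-type changes at a Pearson r of 0.505 (Spearman rho 0.444) and with S-type changes at 0.177 (0.221). These correlations run across loci, which are not independent, and the pairs share no library. All 3 root types shared 80 higher and 124 lower loci. No call in either lateral type was made for 844 loci higher in nodal roots (49.97%) and 842 loci lower (54.7%), against 68.4% of all described loci. Without the photosynthesis lists, 721 loci were higher in both nodal and L-type roots.

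**Figure D5:**
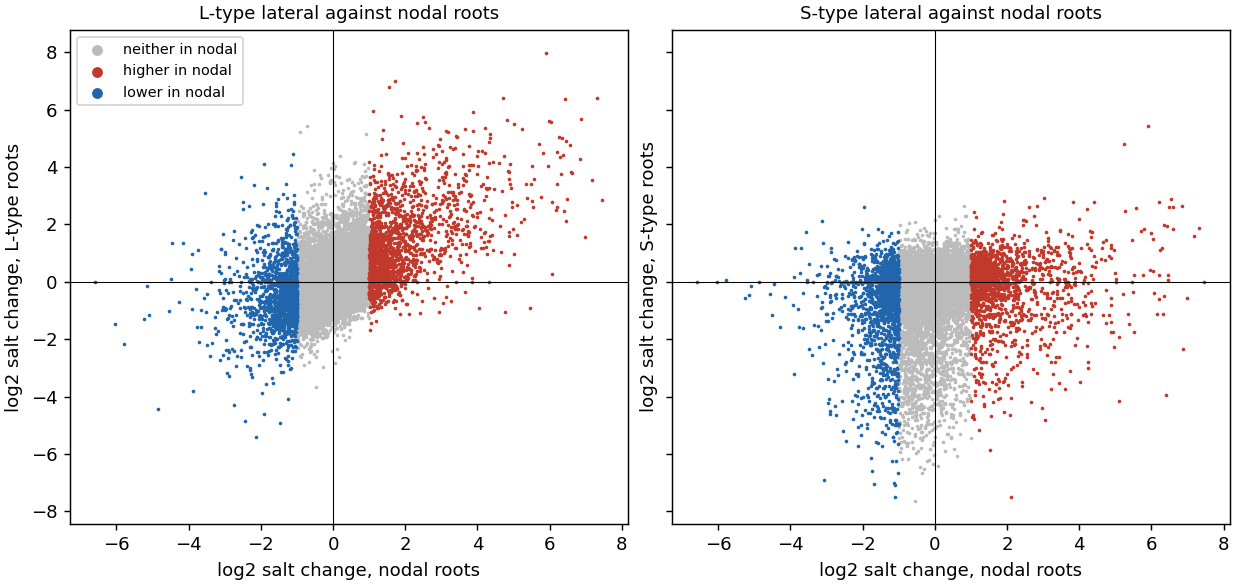
Log2 salt change in L-type (left panel) and S-type (right panel) lateral roots on the vertical axis, against the change in nodal roots on the horizontal axis, 1 point per locus, red where higher and blue where lower in nodal roots. The red points lie above 0 mostly in L-type roots, where their median is 1.16, and around 0 in S-type roots, where their median is 0.05.

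The authors' deposited table holds its own test of the nodal pair. In the authors' deposited table, 9 of 18830 tested loci (0.0478%) pass a q-value of 0.05, with 8 higher and 1 lower under salt. Each of these 9 has no read in one of the libraries, and all share a p-value of 5e-05 and a q-value of 0.0144 in the authors' deposited table. In the reads, the 9 had 44.5 to 125 scaled reads in the library where they were found, 8 met the call rule used here, and 2 were in the photosynthesis lists. An unadjusted p under 0.05 stands beside 268 loci in the authors' deposited table, of which 136 were called here, or 4.21% of all calls. Folds from the deposited FPKM had the same sign for 3226 of the 3228 called loci. Both measures come from the same 2 libraries and these loci were picked for their change, so a shared sign carries little information. With the deposited FPKM, 1511 loci were higher and 1897 lower, so 44.3% of calls were higher. For 36 described loci the 2 measures differed by over 1 log2 unit beyond the median difference.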

How the data were processed

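Strand-specific mRNA libraries were made from root RNA, per the labels' protocols. The submitters' processing notes name build IRGSP-1.0, Cuffdiff 2.2.1, Cufflinks 2.2.1, TopHat2 2.0.11, Bowtie and Trimmomatic 0.32. For every locus and library the authors deposited a scaled signal, reads over a size factor. Their second deposited table lists FPKM (fragments scaled by length and depth), p-values and q-values of 15 library pairs. The sources used here do not say how reads shared by near-identical copies were counted, which leaves members of gene families uncertain.

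Reads were recovered from the signal's steps and came out whole, within 0.01, for 99.897% to 99.977% of values. Reads were scaled with TMM factors (edgeR 4.0.16, R 4.3.3) from 19469 loci (10 or more reads in 2 or more libraries), 1.116 for salt nodal and 1.064 for control nodal roots. With 1 library a group no test was run, and nothing measures the spread between plants. Ratios carry 95% exact conditional binomial (Clopper-Pearson) intervals (scipy 1.17.1), which with the floor of 3 reads cover counting error only, since PCR reads without molecular identifiers are not independent molecules. Log2 changes use a pseudocount of 1, which understates changes of low loci. Loci printed by ID were, per direction, the largest fold at 200 or more scaled reads and the largest difference in scaled reads. The loci described, the 44 lists and the rules were chosen with earlier results of these data known. Other scalings, minima, folds and pseudocounts were tried as alternatives.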

Additional observations from a re-analysis of the deposited data

Results flagged for a closer look

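Some loci moved in opposite directions under salt in nodal and lateral roots, in shares at or below those of all described loci. Of the loci higher in salt nodal roots, 154 were lower in salt S-type roots, which is 9.12% of them against 10.6% of all described loci. Another 7 were lower in salt L-type roots, 0.414% against 9.60%. Of the loci lower in salt nodal roots, 35 were higher in salt S-type roots, 2.27% against 2.62% of all described loci. A further 87 were higher in salt L-type roots, 5.65% against 13.8%. With 1 library a group these differences between root types were not tested.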

How the results depend on the processing

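No paired analysis was possible because the nodal comparison has 1 library a side and the labels give no replicate numbers, and a model over the 3 root types was not fitted here. With a minimum of 10, 200 or no scaled reads, 2945, 645 and 3212 loci were higher in nodal roots, and with a minimum of 200 or none 770 and 2368 were lower. At 1.5-fold 2949 were higher and 3298 lower, and at 4-fold 551 and 232. Loci higher in both nodal and L-type roots (736) numbered 1445, 243 and 1589 at a minimum of 10, 200 or none, 1390 at 1.5-fold and 210 at 4-fold. Those lower in both (407) numbered 621, 168, 653, 1314 and 28 in the same order. Loci higher in both nodal and S-type roots (113) numbered 264, 33, 288, 448 and 12, and those lower in both (315) numbered 568, 120, 606, 917 and 28. These changes follow from fewer or more loci passing each limit. The median over all described loci moved to -0.18 with median-of-ratios factors, -0.17 on the deposited scale and 0.01 with library totals. The median of the chlorophyll synthesis list was 1.17 and turned to -0.0255 at a minimum of 200 scaled reads, where fewer loci are counted. Of the 524 medians recomputed, 19 list medians changed sign, of which only that of chlorophyll synthesis was at 1 or beyond on the log2 scale. The other scalings and minimum of the 4-fold counts, and those of list counts and of loci without an ID, were chosen after seeing the data. A difference under counting error was not detectable at this depth, and the spread between plants is unknown at any depth.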

Other observations

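Loci without a gene ID leaned upward in salt nodal roots. Of 98 such loci above the minimum, 46 were higher (46.9%, against 13.1% of all described loci) and 11 lower, with a median log2 change of 0.90. Other scalings gave 39 to 53 higher and 10 to 13 lower. The 46 summed to 6011 scaled reads in salt nodal and 1507 in control nodal roots. Of these 46, 15 were also higher in L-type roots, 0 were higher and 4 lower in S-type roots. Of all loci higher in nodal roots, 43.6% were also higher in L-type roots, and 6.69% were higher and 9.12% lower in S-type roots. The lateral counts are thus not a trait of loci without an ID. The median span of the 46 was 1825 bp, and for 9 of them the nearest locus with an ID was also higher. No share over all loci stands beside that count. Loci without an ID are also less read than others, with a median of 72.6 mean scaled reads against 139 for loci with an ID.

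Called loci had neighbours of the same direction slightly more often than the background share. The next described locus on the chromosome was also higher for 273 of 1688 higher loci (16.2%, against 13.1%) and also lower for 242 of 1538 lower loci (15.7%, against 11.9%). The longest run was 5 lower loci on chromosome 10 (21658191 to 21697778), with 2256 scaled reads in salt nodal and 5683 in control nodal roots. A run of 4 higher loci on chromosome 7 (24470109 to 24481937) had 1844 in salt nodal and 407 in control nodal roots. Another run of 4 higher loci on chromosome 5 (17149338 to 17216710) had 1245 in salt nodal and 186 in control nodal roots. Per chromosome, the share of higher loci lay between 10.3% on chromosome 12 and 15.8% on chromosomes 10 and 11.

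Among the other lists, reference genes, which are often used to scale such data, had 2 of 5 loci lower and 0 higher (median -0.84), with sums of 8005 scaled reads in salt nodal and 16917 in control nodal roots. All 5 had a change below 0. Crown and lateral root regulators had 1 of 3 higher and 0 lower. Silicon transporters and the Casparian strip had 0 of 4 called, or 1 higher with library totals, and sums of 6176 in salt nodal and 3686 in control nodal roots. Pathogenesis-related PR10 and PR1 loci had 0 of 2 called. No diterpenoid phytoalexin locus passed the minimum, with sums of 3.49 in salt nodal and 7.10 in control nodal roots.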
